A study of Mus musculus with 4 samples.

Results

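Expression of 10 marker genes of the proepicardium and epicardium was measured in mouse hearts at embryonic day 9.5. The genes were Wt1, Tcf21, Upk3b, Upk1b, Msln, Krt14, Gpm6a, Bnc1, Sema3d and Aldh1a7, and their members were all array probes named for them. Each gene had 1 of the 39429 non-control probes on the array. All 10 probes were among the 25483 tested, whose signal was well above background on every array in the channel of at least 1 genotype. All 10 were also well above background in all 8 channels, so none passed the filter through 1 genotype alone.

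The proepicardium is a cluster of mesothelial cells next to the inflow of the looping heart and the septum transversum. Its cells spread over the bare myocardium as the epicardium, and some later enter the heart wall and form fibroblasts and mural cells of the coronary vessels. Wt1 and Tcf21 are transcription factors widely used to mark this lineage, and the surface proteins mesothelin and uroplakin-3b are shared with mesothelium elsewhere in the body. Embryonic day 9.5 is about the time at which this migration begins in the mouse.

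Mutant hearts were Nkx2.5Cre; Hdac3f/f and control hearts were Hdac3f/f littermates, all on a mixed CD1/B6/129 background. Cre is driven from Nkx2.5, a gene of cardiac progenitors, and Hdac3 encodes a histone deacetylase. No control carried Cre without loss of Hdac3, so the effects of the deletion and of Cre cannot be told apart. There were 4 two-colour arrays on 1 slide, each with RNA from a pool of 3 mutant hearts and from a pool of 3 control hearts, giving n = 4 pairs of pools. Replicates 2 to 4 are described in the labels as stem cell samples, although their titles, sources and genotypes are those of hearts. In these whole-heart pools, fewer cells of a type and less RNA per cell cannot be told apart.

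The direction of the ratios on arrays 3 and 4, and so of every mean and median over the 4 arrays below, is not settled. By the labels, mutant RNA carried Cy5 on each of the 4 arrays. The authors' deposited columns, which are named for mutant against wild type, ran with Cy5 over Cy3 on arrays 1 and 2 and against it on arrays 3 and 4. Their slopes against the scanner's ratio were 1.03, 1.01, -0.99 and -1.01 over bright probes. With the deposited signs, arrays 1 and 4 had a correlation of -0.42 over all 39429 probes. Over those probes all array pairs correlated above 0 when read as labelled. Over the 25483 probes tested, arrays 1 and 4 had -0.30 with the deposited signs, and arrays 2 and 4 had -0.12. Array 3 there had 0.086 with array 1 and 0.032 with array 2, and these fall below 0 as labelled. Values are given with the deposited signs, and means and medians with every array read as labelled (Cy5 over Cy3) are given beside them; single ratios of arrays 3 and 4 then change sign. Under the deposited signs Hdac3 itself had log2 ratios of -0.22, -0.50, -0.52 and -1.15 on arrays 1 to 4, with a mean of -0.60 ± 0.39 (SD, n = 4) that became 0.24 as labelled (limma, adjusted p = 0.579 with the deposited signs). Whether its probe lies in the floxed part is not stated in the labels or the files. The share of probes well above background was 66.6% to 71.2% per channel, and the 10 genes of the working myocardium list were all well above background in all 8 channels.

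The array probes of the 4 genes that were below 0 on every array are given first, because the values below rest on these single sequences. They are written 5′ to 3′ as on the array, with no capitals, in full for Tcf21 and as the opening stretch for the others.
Tcf21 probe, chr10:22537563-22537622 (mm9, minus strand): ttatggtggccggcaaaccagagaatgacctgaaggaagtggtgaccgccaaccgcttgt
Upk1b probe, chr16:38773859-38773918 (mm9, minus strand): ctatataagacagaaagtttggagaatgga
Gpm6a probe, chr8:56145539-56145598 (mm9, plus strand): tcgtgtttgttttaaccttgactctctttt
Aldh1a7 probe, chr19:20767553-20767612 (mm9, minus strand): ttccttgaactatgtaccatgcatgataac
The exon or untranslated region under each probe was not determined.

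Tcf21 and Aldh1a7 had the most similar ratios of any pair compared below that held a marker gene, so their promoters are shown as well, from the RefSeq table of GRCm38.p6, from 250 bases before to 50 bases after the start and on the gene's own strand. Capitals mark matches, on either strand, to the TATA box letters TATAAA, the TEAD letters GGAATG, the T-box letters GGTGTGA, the half-site letters AGGTCA of nuclear receptors, the letters AGATAA of the GATA factors, or the letters GCGTGGGNG shared by WT1 and the EGR factors.
Tcf21 promoter, chr10:22820094-22820393: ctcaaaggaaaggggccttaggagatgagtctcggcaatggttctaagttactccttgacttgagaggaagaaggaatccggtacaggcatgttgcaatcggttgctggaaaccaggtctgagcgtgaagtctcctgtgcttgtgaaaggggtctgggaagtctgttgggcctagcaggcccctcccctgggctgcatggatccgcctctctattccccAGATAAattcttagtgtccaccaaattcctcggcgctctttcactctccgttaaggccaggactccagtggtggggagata
Aldh1a7 promoter, chr19:20727507-20727806: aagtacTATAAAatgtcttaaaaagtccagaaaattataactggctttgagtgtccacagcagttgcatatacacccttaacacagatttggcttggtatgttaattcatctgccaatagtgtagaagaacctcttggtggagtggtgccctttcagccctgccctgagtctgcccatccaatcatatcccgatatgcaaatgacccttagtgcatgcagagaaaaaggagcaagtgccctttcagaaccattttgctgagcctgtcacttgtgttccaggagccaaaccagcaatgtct
The Tcf21 window held 1 GATA match and the Aldh1a7 window 1 TATAAA match, and neither held a match to the other motifs in capitals. The GATA letters occurred in 11.2% and TATAAA in 13.6% of the 32851 mouse promoter windows of 300 bases. The E-box letters CANNTG, which can overlap the T-box letters and occurred in 72.3% of windows, had 0 matches for Tcf21 and 5 for Aldh1a7. No motif in capitals was common to the 2 windows.

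With the deposited signs, 9 of the 10 marker genes had a mean below 0, that is, a lower level in the mutant pools. The exception was Krt14. The share of all probes tested with a mean below 0 was 48.1%. The median over the 10 genes was -0.34, against 0.0063 over all probes tested. None of the 10 passed the threshold of the test across all probes (limma, Benjamini-Hochberg adjusted p from 0.579 to 0.846), and no probe of any gene did (0% of those tested). At an unadjusted p under 0.05, 4 marker genes were lower (Tcf21, Upk1b, Gpm6a and Aldh1a7), where 4.88% of all probes tested were lower and 3.65% higher at that level. As labelled, 5 of the 10 had a mean below 0, as had 50% of all probes tested, and the median was -0.032. Only Msln, which was lower, had an unadjusted p under 0.05 under that reading, where 6.85% of all probes tested were lower and 6.89% higher. In the same fit 0 of the 10 passed the threshold, which 0.0471% of all probes tested then passed (limma).

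**Figure D1:**
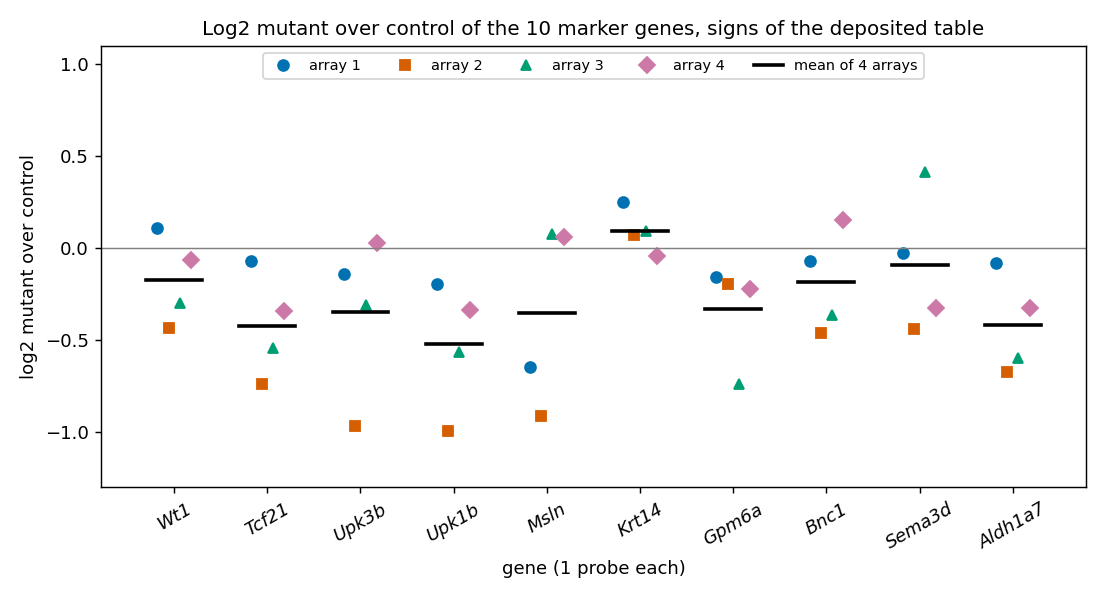
Log2 ratio of mutant over control for each of the 10 marker genes, with the signs of the deposited table. Points are single arrays, told apart by shape and colour, and the bar is the mean of 4 arrays. Tcf21, Upk1b, Gpm6a and Aldh1a7 lie below 0 on all 4 arrays, and array 2 gives the lowest value of 8 of the 10 genes.

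The transcription factors of the list were Wt1, Tcf21 and Bnc1. Wt1, a zinc finger factor required for the epicardium, had log2 ratios of 0.11, -0.43, -0.295 and -0.065 on arrays 1 to 4. Array 1 was above 0 and the other 3 arrays below. The mean was -0.17 ± 0.24 (SD, n = 4; 95% interval -0.43 to 0.088; limma, adjusted p = 0.641), and 0.009 as labelled. It was -0.26 without array 1 and -0.083 without array 2. Its processed intensity was 2960 ± 270 in the control and 2632 ± 471 in the mutant channels (SD, n = 4), and the groups overlapped.

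Tcf21, a basic helix-loop-helix factor of epicardial cells that become fibroblasts, had ratios of -0.068, -0.74, -0.54 and -0.34. All 4 lay below 0, with array 1 close to it. The mean was -0.42 ± 0.29 (SD, n = 4), 25.3% lower in the mutant, with a 95% interval of -0.71 to -0.13 from the fit (limma, adjusted p = 0.579). Read as labelled, the mean was 0.020, because arrays 1 and 2 then lay below 0 and arrays 3 and 4 above. Processed intensity on arrays 1 to 4 was 513, 589, 404 and 656 in the control channel against 482, 349, 274 and 509 in the mutant channel. The mutant value was the lower of the pair on each array, although the 2 sets of values overlapped.

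Bnc1, a zinc finger factor known from basal keratinocytes and mesothelium, had ratios of -0.067, -0.46, -0.36 and 0.15. Arrays 2 and 3 were low, array 1 near 0 and array 4 above 0. The mean was -0.185 ± 0.28 (SD, n = 4; limma, adjusted p = 0.642), and -0.08 as labelled. It was -0.092 without array 2 and -0.30 without array 4.

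The uroplakins are membrane proteins best known from the bladder lining, and Upk1b and Upk3b are also made by mesothelium. The Upk1b probe was printed at 10 spots on each array, and those of the other 9 genes at 1 spot, so the spread between spots can be seen for Upk1b alone. The spot means were -0.19, -0.99, -0.56 and -0.33 on arrays 1 to 4. Every spot lay below 0, and the ranges of the 4 arrays did not meet: the spots ran from -0.25 to -0.15 on array 1, from -1.045 to -0.96 on array 2, from -0.59 to -0.53 on array 3 and from -0.38 to -0.27 on array 4. The SD between spots of an array was at most 0.037, whereas the SD between arrays was 0.35, which is 9.43 times as large. The median SD between spots of the 399 probes printed at 10 spots was 0.058. The mean was -0.52 ± 0.35 (SD, n = 4; 95% interval -0.85 to -0.19), 30.3% lower in the mutant (limma, adjusted p = 0.579). As labelled it was -0.073.

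**Figure D2:**
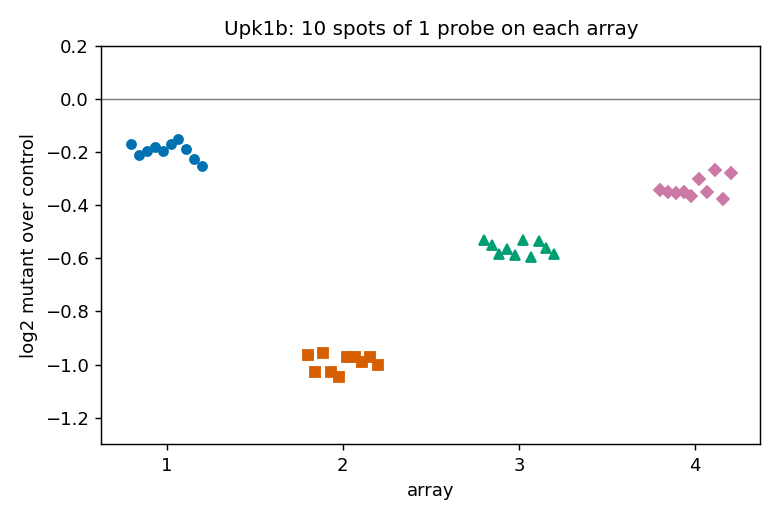
Log2 ratio of mutant over control, signs of the deposited table, at each of the 10 spots of the Upk1b probe on each of the 4 arrays. Each point is 1 spot. Spots of an array cluster tightly (SD of at most 0.037) while the arrays differ, with array 2 lowest at a mean of -0.99 and array 1 highest at -0.19.

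Upk3b, a uroplakin used as a mesothelial marker, had ratios of -0.14, -0.965, -0.31 and 0.03. Array 2 stood far below the other 3. The mean was -0.34 ± 0.44 (SD, n = 4; limma, adjusted p = 0.597) and -0.21 as labelled, and it was -0.14 without array 2. Of the other uroplakins, Upk1a had a mean of 0.0035 ± 0.058 (SD, n = 4; limma, adjusted p = 0.991), or 0.037 as labelled, Upk3a did not pass the filter and Upk2 was not well above background in any channel.

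Msln encodes mesothelin, a surface glycoprotein of mesothelial cells. Its ratios were -0.64, -0.91, 0.076 and 0.063, so it was low on arrays 1 and 2 and slightly above 0 on arrays 3 and 4. The mean was -0.35 ± 0.50 (SD, n = 4; limma, adjusted p = 0.605), and -0.17 without array 2. Read as labelled, all 4 arrays of Msln lay below 0, with a mean of -0.42 ± 0.42 (SD, n = 4; limma, adjusted p = 0.345). Over all probes tested, 25.8% had the same sign on all 4 arrays when read so. The mean of arrays 1 and 2 minus that of arrays 3 and 4 was -0.85 with an SE of 0.14, which did not pass the test across all probes (limma, adjusted p = 0.101). The other 9 genes had adjusted p from 0.437 to 0.971 in that test (limma). The Msln probe had a mean signal of only 1.34 to 4.18 times the local background. Its processed intensity was 31.2, 34.9, 15.1 and 14.3 in the control channels and 13.0, 10.4, 18.0 and 16.4 in the mutant channels of arrays 1 to 4.

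**Figure D3:**
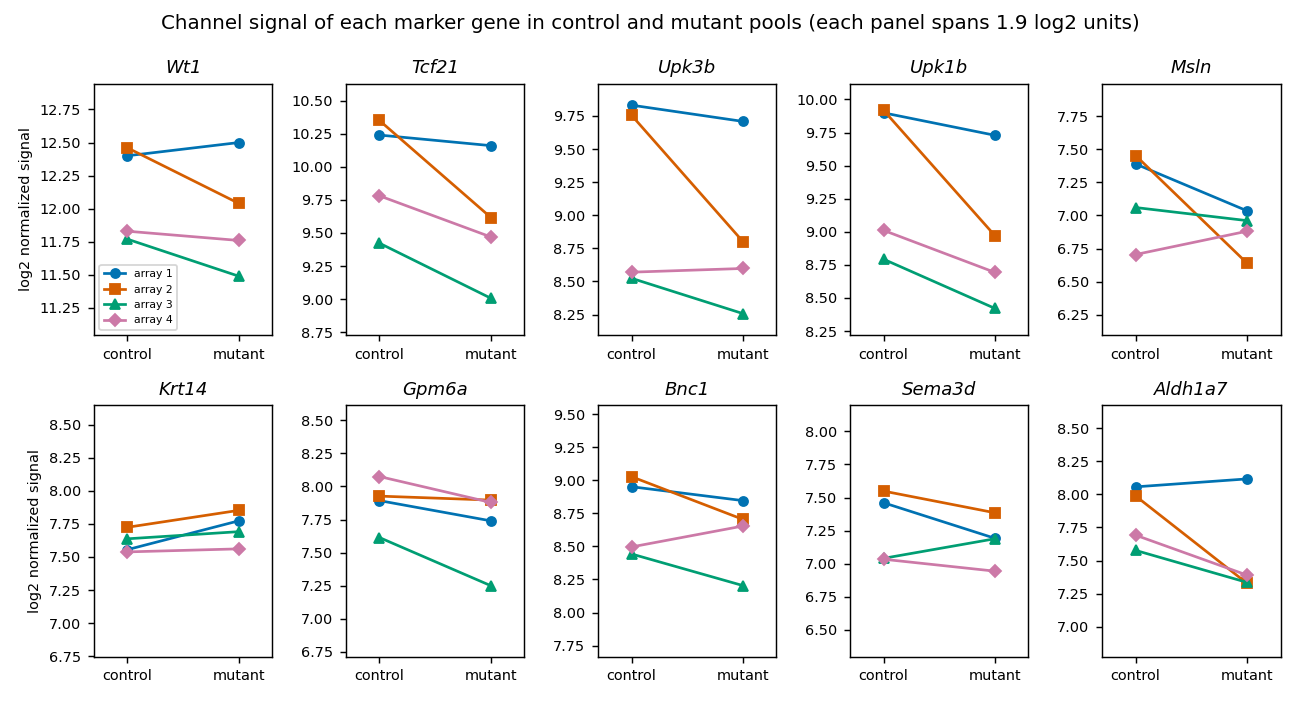
Log2 normalized signal of each marker gene in the control and mutant channels, with a line joining the channels of 1 array and the channels assigned as in the deposited table. Each panel spans 1.9 log2 units, and levels of different panels are not comparable because they come from different probes. The lines of Tcf21 and Upk1b slope down on all 4 arrays, steepest on array 2, and those of Krt14 slope up, also on array 4, where the deposited ratio was -0.042. The line of Aldh1a7 slopes up on array 1 and that of Msln down on array 3, against deposited ratios of -0.081 and 0.076.

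Krt14, a type I keratin of basal epithelia, was the only marker gene with a mean above 0 under the deposited signs. Its ratios were 0.25, 0.075, 0.094 and -0.042, so array 4 lay just below 0 and the others above. The mean was 0.095 ± 0.12 (SD, n = 4; 95% interval -0.099 to 0.29; limma, adjusted p = 0.706), and 0.069 as labelled. It was 0.042 without array 1. The probe spans 606 bases of chromosome 11 (mm9, chr11:100064683-100065288, minus strand) with 60 bases of its own, so it crosses a splice junction. Surface ectoderm also makes Krt14, and 8 of 10 genes of that list were measured, 3 with a mean below 0 and 5 above. The list median was 0.081, or -0.0089 as labelled. The lowest were Krt15, another basal keratin (-0.088 ± 0.73, or -0.60 as labelled), and Grhl3 (-0.063 ± 0.20, or 0.11 as labelled). The highest were Grhl2 (0.36 ± 0.20, or -0.11 as labelled) and Tfap2c (0.34 ± 0.42, or -0.17 as labelled). Krt5, the usual partner of Krt14, had a mean of -0.016, or 0.089 as labelled.

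Gpm6a, a membrane glycoprotein studied mostly in neurons, had ratios of -0.16, -0.19, -0.74 and -0.22. The values of arrays 1, 2 and 4 lay close together and array 3 far below them. The mean was -0.33 ± 0.28 (SD, n = 4; 95% interval -0.61 to -0.046; limma, adjusted p = 0.579). It was -0.19 without array 3, which is a move of over 1.5 times, and 0.15 as labelled.

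Sema3d, a secreted guidance protein of the class 3 semaphorins, had ratios of -0.024, -0.44, 0.42 and -0.32. Arrays 2 and 4 were low, array 1 near 0 and array 3 high, and no direction was shared by the 4 arrays. The mean was -0.093 ± 0.38 (SD, n = 4; limma, adjusted p = 0.846). It turned to 0.023 without array 2 and was -0.14 as labelled.

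Aldh1a7 encodes a rodent aldehyde dehydrogenase that is a close relative of Aldh1a1. It had ratios of -0.081, -0.67, -0.595 and -0.325, all below 0, with arrays 2 and 3 lowest. The mean was -0.42 ± 0.27 (SD, n = 4), 25.1% lower in the mutant, with a 95% interval of -0.69 to -0.14 (limma, adjusted p = 0.579). As labelled it was 0.042. Aldh1a1, which makes retinoic acid, had ratios of 0.017, -1.20, -0.59 and -0.58 and a mean of -0.59 ± 0.50 (SD, n = 4; limma, adjusted p = 0.579), or -0.003 as labelled. The Aldh1a7 probe shared no run of 12 bases with the probes of Aldh1a1, Aldh1a2 or Aldh1a3 (0 shared for each). Whether it also captured the related Aldh1a1 transcript was not tested, so its values are uncertain in that respect.

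Array by array, 8 marker genes lay below 0 on array 1, 9 on array 2, 7 on array 3 and 7 on array 4. The medians over the 10 genes were -0.075, -0.57, -0.34 and -0.14, while the medians over all probes tested ran from -0.005 to 0.006. Array 2 thus carried the lowest values and array 1 values near 0. Without array 2, the median over the 10 genes was -0.15. In all, 4 marker genes lay below 0 on all 4 arrays and 0 above, where 10.2% of all probes tested lay below and 9.63% above. With 4 pairs the smallest two-sided p of an exact sign test is 0.125.

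**Figure D4:**
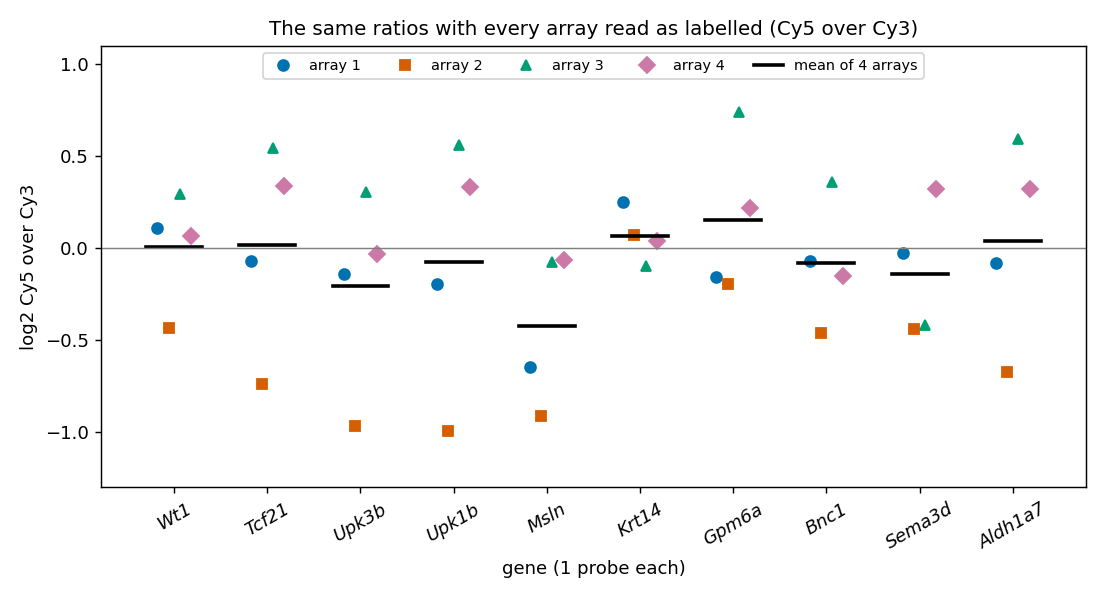
Log2 of Cy5 over Cy3 for the same 10 genes with every array read as the labels state. Points are single arrays and the bar is their mean. Arrays 3 and 4 now lie on the other side of 0 from where the deposited signs put them, so that Tcf21, Upk1b, Gpm6a and Aldh1a7 have both signs, and Msln lies below 0 on all 4 arrays.

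The likeness of patterns was measured as the root mean square difference of the log2 ratios over the 4 arrays, among 123 other genes of the lists described here. Tcf21 and Aldh1a7 were nearest to each other, at 0.043. Both had Upk1b as the next nearest, at 0.14 from Tcf21 and 0.17 from Aldh1a7. With the deposited signs these 3 genes shared the order of the arrays, with array 1 highest, then arrays 4, 3 and 2. Read as labelled they shared another order, with array 3 highest, then arrays 4, 1 and 2. The differences themselves are the same under both readings. Wt1 was nearest to Tbx18, a T-box factor of the proepicardium, at 0.073, and Tbx18 had ratios of 0.155, -0.30, -0.27 and -0.084 and a mean of -0.12, or 0.052 as labelled.

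Other marker genes were nearest to genes that were not marker genes themselves. Of the genes named next, Lrrn4, Rspo1, Krt7 and Pdgfrb belonged to the wider epicardial list described below, as did Tbx18. Upk3b and Bnc1 were nearest to Ahsp, a haemoglobin chaperone, at 0.15 and 0.14, and next to Lrrn4, a mesothelial marker, at 0.18 and 0.14. Gpm6a was nearest to Emcn, an endothelial sialomucin, at 0.15. Msln was nearest to Tubb3, a neuronal tubulin, at 0.24, followed by Rspo1 at 0.25 and Krt7 at 0.26. Sema3d was nearest to Pdgfrb, a receptor of mural cells, at 0.25, and Krt14 was nearest to Apoa2 at 0.096.

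A wider list of 22 other epicardial and proepicardial genes had values on both sides of 0. All 22 were measured, 13 with a mean below 0 and 9 above. Their median was -0.046, or 0.066 without array 2 and -0.13 as labelled, and 0 passed the threshold (limma). The only gene at an unadjusted p under 0.05 was Efemp1, a matrix glycoprotein, with a mean of -0.60 ± 0.56 (SD, n = 4; limma, adjusted p = 0.579), or -0.33 as labelled. It was lowest on array 2, at -1.43. Itga4, the integrin subunit with which the epicardium adheres to myocardium, had a mean of -0.31 ± 0.41 and was 0.17 as labelled. The highest means were those of Krt18 (0.28 ± 0.33) and Dmkn (0.30 ± 0.85), and both were below 0 as labelled, at -0.27 and -0.68. On arrays 1 to 4 the medians of the list were -0.082, -0.17, 0.14 and 0.074.

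The genes that handle retinoic acid near Aldh1a7 were mixed. Of 8 fixed genes, 7 were measured, with 4 means below 0 and 3 above, and a median of -0.051, or -0.0018 as labelled. At an unadjusted p under 0.05, 1 was lower (Aldh1a1) and 2 higher, and 0 passed the threshold (limma). The 2 higher were Cyp26b1, an enzyme that degrades retinoic acid, at 0.42 ± 0.26, and Dhrs3, a retinaldehyde reductase, at 0.25 ± 0.086 (SD, n = 4). Read as labelled these were 0.22 and -0.0018. Rdh10, which makes retinaldehyde, had a mean of -0.315 ± 0.40, or 0.29 as labelled. Aldh1a2, the retinoic acid enzyme typical of the epicardium, had ratios of 0.18, -0.54, 0.011 and 0.15 and a mean of -0.051, or -0.13 as labelled.

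For the class 3 semaphorins and their receptors, relatives and partners of Sema3d, 13 of 13 were measured, 6 with a mean below 0 and 7 above, and the median was 0.018, or -0.028 as labelled. The lowest were Sema3c (-0.28 ± 0.35) and Nrp1, a receptor of this class (-0.28 ± 0.28). The highest were Sema3g (0.26 ± 0.15, while its other probe gave 0.023) and Plxnd1 (0.25 ± 0.49). As labelled, Sema3c and Nrp1 were above 0, at 0.28 and 0.24, and Sema3g and Plxnd1 below, at -0.045 and -0.38. Of 8 relatives and partners of Tcf21, Bnc1 and Wt1, 6 were measured, all with means above 0 and a median of 0.19, or 0.020 as labelled. They included Wtap, named as a WT1-associated protein (0.25 ± 0.17, other probe -0.31), and Lmo2 (0.22 ± 0.23), which were 0.045 and -0.15 as labelled. None of these genes passed the threshold (limma), and 1 of each list was higher at an unadjusted p under 0.05.

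Markers of tissues in or next to the heart were read beside the 10 genes. The 10 genes of primitive red blood cells all had means below 0, with a median of -0.30, and their array medians were -0.076, -0.65, -0.40 and -0.32. These lay near the array medians of the epicardial markers on arrays 1 to 3. The summed processed intensity of the red cell list was 228800 to 369700 in the mutant channels and 339400 to 470300 in the control channels, and all 10 genes were well above background in all 8 channels. Read as labelled, the red cell median was 0.0073. The part of red cell content in the marker values was not tested.

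Lists of neighbouring tissues that also express some of the markers had medians above 0 with the deposited signs. The median was 0.22 for liver bud and septum transversum (9 of 12 measured, 7 above 0), 0.18 for urogenital ridge and coelomic epithelium (7 of 8 measured, 6 above 0) and 0.32 for branchial arch mesoderm (4 of 7 measured, 3 above 0). Afp, a liver gene, had the highest mean of the liver and septum list. Its ratios were 2.11, 0.90, 0.19 and 0.25, and its mean was 0.86, or 0.64 as labelled. The lowest means of that list were those of Alcam (-0.22 ± 0.54, or 0.23 as labelled) and Prox1 (-0.021 ± 0.095, or -0.011 as labelled). Apoa1, Emx2, Msc and Myf5 were not well above background in any channel. The summed intensity of the liver and septum list was 2766 to 3895 in the mutant and 2307 to 4686 in the control channels, that of the urogenital list 4507 to 7595 and 3986 to 7512, and that of the branchial arch list 899 to 2081 and 827 to 1996. Each pair of ranges overlapped. Lhx2 was counted in both the liver and septum list and the branchial arch list, so these are not separate sets of genes. As labelled, the 3 medians were 0.14, -0.019 and 0.065. With no filter on dim probes the branchial arch median was 0.017, with normexp and loess the urogenital median was 0.042, and with the scanner's own log ratio the liver and septum median was 0.56. The part of dissected neighbouring tissue in the marker values was not tested.

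Of the remaining lists, working myocardium was at -0.018 (10 genes) with array medians of 0.079, 0.24, -0.20 and -0.26, and 0.18 as labelled. Endocardium was at 0.17 (10 genes, 6 above 0), or -0.0079 as labelled. Neurons and neural tube, which make Gpm6a, were at 0.023 (10 of 12 measured), or -0.028 as labelled. No gene of any marker list passed the threshold (limma).

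**Figure D5:**
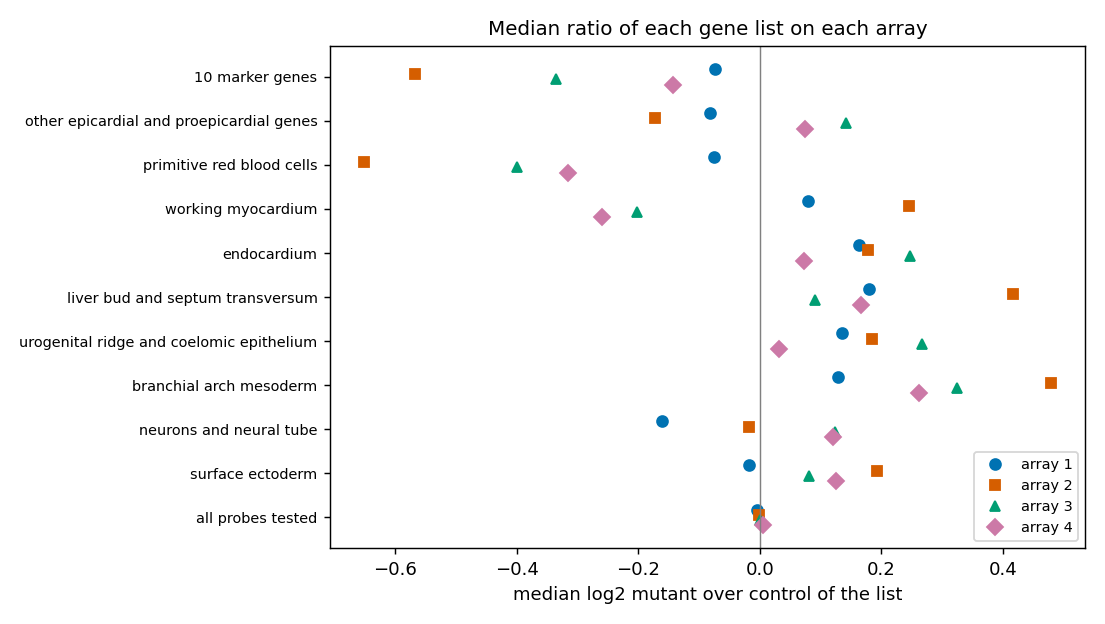
Median log2 ratio of mutant over control of each gene list on each array, with the signs of the deposited table. Points are arrays. The 10 marker genes and the primitive red blood cell genes are lowest on array 2 (-0.57 and -0.65) and nearest 0 on array 1, whereas the other epicardial genes lie on both sides of 0 and all probes tested lie near 0.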

How the data were processed

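The 10 marker genes and all other gene lists were chosen with earlier results of these data known. The authors deposited scanner files for 4 arrays and a table of normalized log2 ratios whose columns are named for mutant against wild type. How the table was normalized is not stated in the labels or files. The medians of its columns were -0.027, -0.017, 0.021 and 0.025, so the columns are close to centred, and its direction on arrays 3 and 4 stays unknown. Of its 43173 rows, 153 were controls. The scanner files give, per the file headers, mean and local background intensity of each spot, its processed intensity and a log10 ratio of Cy5 over Cy3 from Agilent Feature Extraction 11.5.1.1, whereas the submitters' processing notes name 8.5.1.1. The deposited log10 ratio was turned to log2 for an alternative.

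Rows were matched by probe name, control spots left out and spots of a probe averaged. Probes whose mutant channel, or whose control channel, was well above background on every array (25483 of 39429) were tested against 0 with limma 3.58.1 (lmFit, eBayes) in R 4.3.3, adjusted by Benjamini-Hochberg and called at an adjusted p under 0.05. Every p-value rests on 4 arrays, which limit the precision. A gene of a list is its brightest probe past the filter. The named genes were all 10 markers, the 2 highest and 2 lowest means of each list (some of which are not reported here), and the nearest in likeness. Hdac3, Krt5, Aldh1a2, Tbx18 and the genes named as not well above background were named after their values were seen. Levels are processed intensity per channel, and the plotted levels are log2 after normexp (offset 50), loess and Aquantile. Gene names are those of the array files. Sequences came from the array files and RefSeq (GRCm38.p6), where 7 of the 10 genes had a promoter. Alternatives were other background and normalization choices, the labelled direction, a dye term, array weights, other filters and probe summaries, unpaired channels and each array left out, and a fit of arrays 1 and 2 only was chosen after seeing the data. The test was tried on simulated ratios of mutant over control for 25466 probes, in which it called 36% of log2 changes of 0.5 and 98% of those of 1, with 14 false calls. The simulated noise was independent between arrays and had the same spread on all 4. The real arrays were correlated, and their SD over all probes tested ran from 0.21 (array 1) to 0.44 (array 3). The simulated shares therefore need not hold for these data. Afp, with a mean of 0.86, was not called (limma, adjusted p = 0.579).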

Additional observations from a re-analysis of the deposited data

Results flagged for a closer look

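In groups of 4 arrays, a value was picked out when its gap to the nearest other array, over the whole range, was above Dixon's critical value at 95%. Chance flags about 1 in 20 groups, and 3 of the 58 genes examined were picked out, of which 1 was among the 10 markers. The 58 were the 10 markers and the genes with the highest and lowest means of each list. That rate need not hold for genes chosen by their means. Gpm6a on array 3, at -0.74, lay far below its other arrays (-0.16 to -0.22). Of the surface ectoderm genes, Tfap2c on array 1, at -0.28, lay below its other arrays (0.47 to 0.62), and Grhl2 on array 1, at 0.057, lay below its others (0.43 to 0.51).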

How the results depend on the processing

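With every array read as labelled, the means of Wt1 (0.009), Tcf21 (0.020), Gpm6a (0.15) and Aldh1a7 (0.042) turned above 0, the marker median was -0.032, 5 markers had a mean below 0 and 1 (Msln, lower) had an unadjusted p under 0.05. Under that reading 12 probes passed the threshold (0.0471% of those tested), none of them a marker, and 1746 were lower and 1755 higher at an unadjusted p under 0.05. Msln, Upk1b, Upk3b, Bnc1, Krt14 and Sema3d kept their sign there. Leaving out each array in turn gave a Sema3d mean of -0.26 to 0.023, 0 to 4 probes past the threshold (4 without array 1), and 820 to 1235 probes lower at an unadjusted p under 0.05. No marker passed an adjusted p of 0.05 in any of the 16 alternatives (limma), the lowest being 0.077 for Msln on arrays 1 and 2 only.

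Counts over all probes varied with the fit. Against 1244 lower and 930 higher at an unadjusted p under 0.05, a dye term gave 2071 and 1707, array weights 3029 and 3104 (5 past the threshold), and arrays 1 and 2 only, chosen after seeing the data, 3426 and 3335 (19 past the threshold). Normexp with median centring gave 394 lower and 786 higher, so that more probes were higher than lower. The fit without the pairing of pools by array (no replicate block) needed separate channel signals after normexp and loess, and gave 403 and 385, where the paired fit of normexp and loess values gave 1106 and 937. Of the markers, 2 were at an unadjusted p under 0.05 with median centring, 7 with array weights, 3 with paired normexp and loess values and 0 when those were unpaired. With normexp and loess in place of the deposited values, the mean of Gpm6a was -0.19, and with array weights that of Msln was -0.65. The causes were not tested. Array weights were 3.42, 2.17, 0.28 and 0.49 for arrays 1 to 4. Msln, Gpm6a and Sema3d, whose lowest signals were 1.34, 1.79 and 1.83 times the local background, are limited by signal over background. In the simulation, whose shares need not hold here, log2 changes of 0.5 mostly went uncalled with 4 arrays. No probe was called in the main fit of the real data, nor was Afp with a mean of 0.86. Changes larger than 0.5 could therefore go uncalled as well.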
